A study of Ovis aries with 16 samples.

Results

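Complement C3 and the antiprotease SERPINA1 were followed across the frontal cortex of 16 fetal sheep in late gestation, 1 array per fetus. The members were chosen by gene, as every probe that the array files name C3 or SERPINA1, which gave 2 genes of 1021 that could be named and 4 probes of 15008 on the array. All fetuses carried indwelling catheters, and all cortices were collected 24 h after a 30 min period began. In the normoxia control group (NC, n = 3) that period was normoxia without ketamine, and in the normoxia + ketamine group (NK, n = 4) the fetus was given 3 mg/kg ketamine intravenously shortly beforehand. The hypoxia control group (HC, n = 5) had 30 min of hypoxia, brought about through the gas the ewe breathed, and the hypoxia + ketamine group (HK, n = 4) had the same hypoxia after 3 mg/kg ketamine. Both hypoxia groups then recovered for 23.5 h in normoxia. Ketamine blocks NMDA receptors, the glutamate-gated channels of neurons, and is used as an anaesthetic. The comparisons ask what transient hypoxia and ketamine, alone and together, leave behind in the cortex a day later.

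C3 is the protein on which the classical, lectin and alternative routes of complement activation converge. Convertases split it into C3a, which signals to immune cells, and C3b, which coats surfaces and leads on to cleavage of C5. The liver makes most C3 in plasma, and in brain it is also made by astrocytes and microglia, where fragments of C3 bound to synapses are read by the receptor CR3, a pair of the integrins ITGAM and ITGB2. SERPINA1 is alpha-1-antitrypsin, a serpin made mainly by the liver that traps neutrophil elastase. Both genes belong to the acute phase response, which interleukins induce.

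Each gene is read by 2 probes, and their sequences, as given in the array files, are shown because the weight of each reading rests on how independent its probes are. In the SERPINA1 pair the capitals mark the bases that both probes share.

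C3 probe 1: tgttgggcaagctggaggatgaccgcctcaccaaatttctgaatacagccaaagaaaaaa
C3 probe 2: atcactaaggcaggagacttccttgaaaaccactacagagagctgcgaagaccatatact
SERPINA1 probe 1: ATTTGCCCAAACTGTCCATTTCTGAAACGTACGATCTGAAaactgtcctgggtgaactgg
SERPINA1 probe 2: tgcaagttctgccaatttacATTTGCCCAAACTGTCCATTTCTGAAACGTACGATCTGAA

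The C3 probes cover bases 664 to 723 and 576 to 635 of the sheep C3 transcript record the array was designed on, with 28 bases between them, so they read separate stretches of the same message. The SERPINA1 probes cover bases 930 to 989 and 910 to 969 of the SERPINA1 transcript and share 40 of their 60 bases, so they are close to 1 reading of that gene. Both C3 probes hold 45.0% G and C. The array files list these probes without a genome position.

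The genes differed in whether the array could measure them. The C3 spots gave between 6460 and 14600 scanner units with probe 1 and between 3830 and 8690 with probe 2, over local backgrounds of 16.0 to 33.0 units. Both C3 probes were well above background on 16 of 16 arrays. The SERPINA1 probes were well above background on 1 and 2 of 16 arrays. C3 could therefore be compared between groups, whereas SERPINA1 was at the edge of what the array could measure.

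C3 was higher after hypoxia alone and higher after ketamine alone, but lowest where ketamine preceded hypoxia. Levels are given as log2 of the normalized intensity, on which 1 unit is a doubling. With C3 probe 1 the NC fetuses read 12.96, 13.19 and 13.03. The NK fetuses read 13.17, 13.64, 13.88 and 13.37. The HC fetuses read 13.86, 13.34, 13.60, 13.04 and 13.60. In these groups the NK and HC values overlapped each other and reached well above NC, although NK replicate 1 and HC replicate 4 lay within the NC range. The HK fetuses read 12.95, 12.62, 12.61 and 12.80, and each of them was below every fetus of the other 3 groups.

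**Figure D1:**
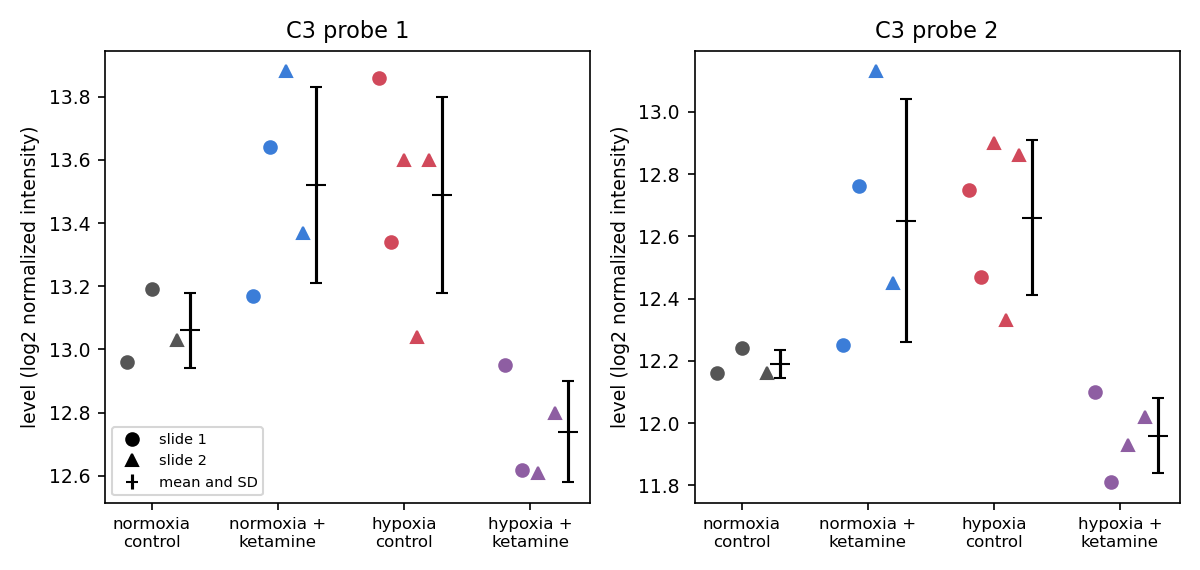
C3 level (log2 normalized intensity) of each fetus with probe 1 (left) and probe 2 (right), by group, with circles for slide 1, triangles for slide 2, and the group mean with its SD beside the points. The HK fetuses lie lowest with both probes, and the NK and HC fetuses spread upward from the NC level.

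The second C3 probe gave the same order of groups with less overlap. The NC fetuses read 12.16, 12.24 and 12.16, a range narrower than that of any other group. The NK fetuses read 12.25, 12.76, 13.13 and 12.45 and the HC fetuses 12.75, 12.47, 12.90, 12.33 and 12.86. All of these NK and HC values were above all NC values, as were 1.99% and 2.08% of all probes with no overlap. The HK fetuses read 12.10, 11.81, 11.93 and 12.02, again below every other fetus. Over all probes, HK lay wholly below HC for 0.56%, below NK for 1.75% and below NC for 2.67%, which is given beside these C3 values and is no test of them.

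The group means put these readings in order. With probe 1 they were 12.74 ± 0.16 (SD, n = 4) in HK, 13.06 ± 0.12 (SD, n = 3) in NC, 13.49 ± 0.31 (SD, n = 5) in HC and 13.52 ± 0.31 (SD, n = 4) in NK. With probe 2 they were 11.96 ± 0.12 (SD, n = 4) in HK, 12.19 ± 0.044 (SD, n = 3) in NC, 12.65 ± 0.39 (SD, n = 4) in NK and 12.66 ± 0.25 (SD, n = 5) in HC. HC and NK, neighbours in that order, were apart by far less than their spread. HK and NC did not overlap with either probe, but their means were only 0.31 ± 0.18 (SE) apart with probe 1 and 0.22 ± 0.177 (SE) with probe 2, on the log2 scale.

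As differences from a limma fit over all probes, C3 was higher in HC than in NC by 0.43 ± 0.172 (SE) log2 units with probe 1 and by 0.47 ± 0.169 with probe 2, a ratio of 1.35 and 1.39. In NK it was higher than in NC by 0.46 ± 0.18 and 0.46 ± 0.177, a ratio of 1.37 and 1.38. Hypoxia alone and ketamine alone thus came with C3 levels of about the same height. In HK the C3 level was 0.597 of that in HC with probe 1 and 0.618 with probe 2, log2 differences of -0.74 ± 0.158 and -0.70 ± 0.155. Against NK the HK ratios were 0.586 and 0.623, log2 differences of -0.77 ± 0.167 and -0.68 ± 0.164. Hypoxia thus went with more C3 in fetuses without ketamine and with less C3 in fetuses with it, and the hypoxia difference with ketamine minus that without was -1.20 ± 0.239 and -1.16 ± 0.235 log2 units. C3 was picked with these values known, so they are a description and carry no test. HC and NK each enter more than 1 of these differences, as do NC and HK, so the differences are not independent of each other.

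The C3 probes moved together from fetus to fetus as well as from group to group. Over the 16 arrays they correlated at Pearson r = 0.96 and Spearman rho = 0.96, and at r = 0.89 after each group's mean was taken off. Among 9884 probes well above background on all arrays, C3 probe 2 was the one most like C3 probe 1. The next had no gene name and r = 0.92, and 4 probes in all exceeded r = 0.8. These points share their array, label and normalization, so r is a description.

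**Figure D2:**
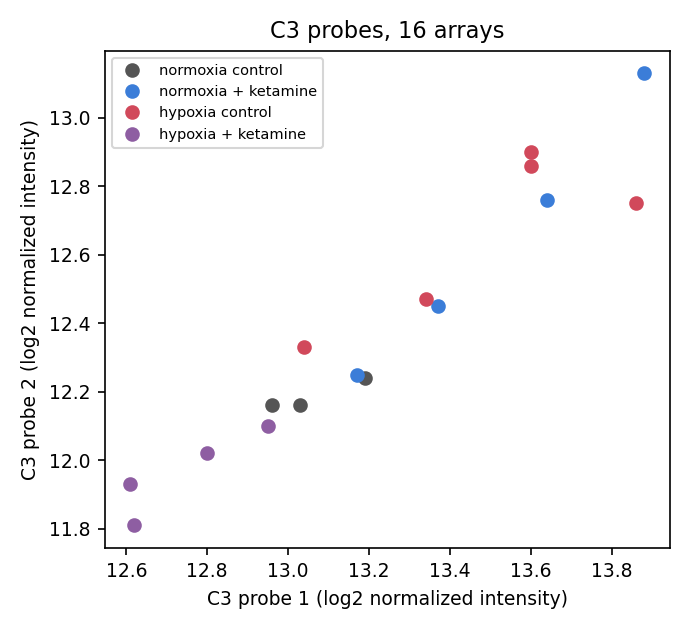
Level of C3 with probe 1 (horizontal) against probe 2 (vertical), both log2 normalized intensity, 1 point per fetus, coloured by group. The 4 HK fetuses fill the lower left corner and the points run along 1 line, with r = 0.96.

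The arrays were run on 2 slides, replicates 1 and 2 of every group on slide 1 and the rest on slide 2. On slide 1 the probe 1 difference was 0.53 for HC minus NC, 0.33 for NK minus NC, -0.82 for HK minus HC and -0.62 for HK minus NK. On slide 2 the same differences were 0.38, 0.59, -0.71 and -0.92. With probe 2 all 4 also kept their sign on each slide, at 0.41, 0.31, -0.65 and -0.55 on slide 1 and 0.53, 0.63, -0.72 and -0.82 on slide 2. NC has 1 fetus on slide 2. One HC label was in doubt, since the title of HC replicate 1 and its sample code give hypoxia without ketamine, while its source name and characteristics give normoxia with ketamine. It held the highest C3 level of HC with probe 1. Placed in NK instead, it left C3 higher by 0.34 in HC and 0.53 in NK than in NC, and lower by 0.65 in HK than in HC.

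SERPINA1 could not be ranked across groups. With probe 1 the log2 levels were 6.59, 6.63 and 6.74 in NC and 6.62, 6.75, 6.63 and 6.65 in NK. In HC they were 6.76, 6.95, 7.16, 6.67 and 6.79, and in HK 6.76, 6.72, 6.99 and 6.70. For comparison, the 1821 probes that were well above background on no array had mean levels with a median of 6.67 and a central range, from the 5th to the 95th percentile, of 6.53 to 6.84. The NC and NK readings of SERPINA1 were thus at the level of probes that no array measured well above background. So were those of HC replicates 1, 4 and 5 and of HK replicates 1, 2 and 4. HC replicate 3, at 7.16, HK replicate 3, at 6.99, and HC replicate 2, at 6.95, stood highest.

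In scanner units the same probe gave 43.6 to 50.4 in NC, 42.0 to 49.5 in NK, 39.3 to 85.1 in HC and 41.9 to 65.4 in HK, over local backgrounds of 18.0 to 27.0. Its only spot well above background was that of HC replicate 3. SERPINA1 probe 2 read 6.67, 6.52 and 6.59 in NC and 6.70, 6.66, 6.67 and 6.56 in NK on the log2 scale. It read 6.78, 6.89, 7.04, 6.66 and 6.63 in HC, and 6.70, 6.75, 7.14 and 6.71 in HK. Its spots well above background were those of HC replicate 3 and HK replicate 3, the same fetuses that stood highest with probe 1. No spot of NC or NK was well above background with either probe.

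**Figure D3:**
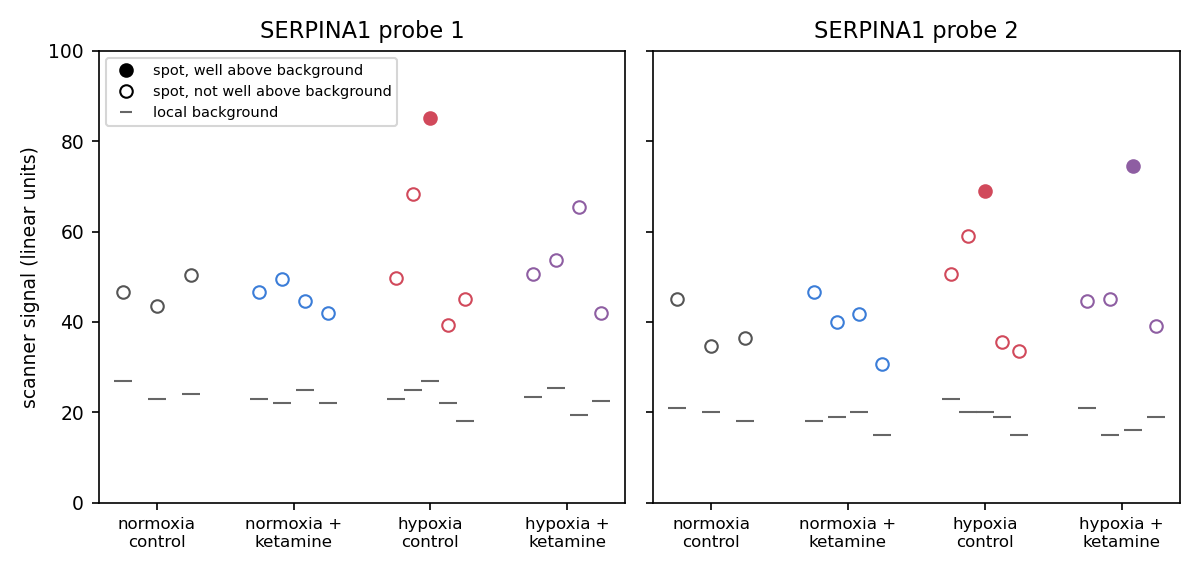
Scanner signal (linear units) of each SERPINA1 spot by group, probe 1 left and probe 2 right, filled where the spot was well above background and open where it was not, with the local background as a dash. Filled points are HC replicate 3 with both probes and HK replicate 3 with probe 2.

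The SERPINA1 means were 6.65 ± 0.076 (SD, n = 3) in NC, 6.66 ± 0.062 (SD, n = 4) in NK, 6.87 ± 0.19 (SD, n = 5) in HC and 6.79 ± 0.13 (SD, n = 4) in HK with probe 1. With probe 2 they were 6.60 ± 0.074, 6.65 ± 0.06, 6.80 ± 0.17 and 6.83 ± 0.21 in the same order. The HC minus NC difference was 0.21 ± 0.0978 (SE) and 0.20 ± 0.107, and HK minus HC was -0.076 ± 0.0899 and 0.024 ± 0.0979. No fold is given for SERPINA1, because a level not well above background is only a bound. Per array, the bound is the larger of the lowest level well above background and the probe's own level. The HC mean of probe 1, at 6.87, was barely above the mean of its NC bounds, 6.86. That of probe 2, at 6.80, did not exceed the mean of its NC bounds, 6.83. With the normexp signal scaled to the 75th percentile of each array, HC minus NC turned to -0.13 and -0.15, and the median of all probes was -0.16 in that setting, against -0.02 in the reported one.

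Of the complement list, 5 of 42 genes had a named probe, C3 among them, so the cascade was sampled thinly. C5AR1 is the receptor for C5a, a fragment made downstream of C3. CR2 binds C3d, and ITGAM and ITGB2 make up CR3. A gene was called where limma's unadjusted P was below 0.05 for its probe with the highest mean, and calls by its other probes are given separately. At that level 1201 probes were called in HC minus NC, 1355 in HK minus HC, 345 in NK minus NC and 1028 in HK minus NK. No probe passed Benjamini-Hochberg adjustment below 0.05 in any of them, the lowest limma adjusted P being 0.319 for HC minus NC, 0.268 for HK minus HC, 1.0 for NK minus NC and 0.441 for HK minus NK. Every call below is therefore at the unadjusted level only. Of 27 calls of listed genes in the 4 comparisons, 11 were kept and 16 lost with the normexp signal scaled to the 75th percentile of each array. Those kept were TIMP1, NFKBIA, GFAP and SELP in both HC minus NC and HK minus HC, and CD14, TTR and IRF1 in HC minus NC.

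None of the 4 other complement genes was called in HC minus NC, where 3.3% of all probes were called higher and 4.7% lower. C5AR1 averaged 9.37 ± 0.21 (SD, n = 3) in NC, 9.54 ± 0.18 (SD, n = 4) in NK, 9.76 ± 0.36 (SD, n = 5) in HC and 9.35 ± 0.34 (SD, n = 4) in HK. It was the 1 complement gene called in HK minus HC, with a log2 difference of -0.41 ± 0.183 (SE), where 3.56% of all probes were called lower and 5.46% higher, and its HC minus NC difference was 0.39 ± 0.199. A second C5AR1 probe was called in both, at 0.44 ± 0.173 for HC minus NC and -0.46 ± 0.159 for HK minus HC, and in the interaction, the hypoxia difference with ketamine minus that without, at -0.62 ± 0.241. C5AR1 was lower in HK than in HC as C3 was, but its NK minus NC difference of 0.17 ± 0.208 was within its error. The C5AR1 call in HK minus HC did not pass without NC replicate 3, without HC replicate 1, 2 or 3, or without HK replicate 2 or 4, nor with HC replicate 1 placed in NK.

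The remaining complement genes were not called in any comparison by the probe with the highest mean. ITGB2 differed by 0.42 ± 0.257 (SE) for HC minus NC and by -0.34 ± 0.236 for HK minus HC. ITGAM had the same mean, within 0.04, in all groups, 6.94 in NC, 6.92 in NK, 6.93 in HC and 6.90 in HK, but was well above background on only 4 of 16 arrays. CR2 was dim as well, with means of 7.03, 7.11, 7.00 and 6.89 in the same order, and no HK array measured it well above background. A second CR2 probe, well above background on 4 of 16 arrays, was called lower in HK minus NK, at -0.36 ± 0.168. In HK minus HC all 4 estimates were below 0, with a median of -0.22 beside 0.017 over all probes. In NK minus NC, where 0.873% of all probes were called higher and 1.43% lower, none of the 4 was called and their median was 0.041.

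Of 36 coagulation genes, 5 had a named probe, F2 and F9 (prothrombin and factor IX), SERPINC1 (antithrombin), PLAU (urokinase) and its receptor PLAUR. PLAU fell in HC against NC, with a log2 difference of -0.27 ± 0.121 (SE), from 8.13 ± 0.12 (SD, n = 3) to 7.87 ± 0.25 (SD, n = 5). This was the only coagulation call in the 4 comparisons, and it was lost without any 1 of 10 of the 16 arrays, NC replicates 2 and 3, NK replicates 1 to 4, HC replicates 1, 2 and 4 and HK replicate 4. F2 and F9 were well above background on 1 array each.

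Of 34 genes on the antiprotease list, 8 besides SERPINA1 were measured, although TPSB2 among them is a tryptase, a protease and no inhibitor. TIMP1 and TIMP3, inhibitors of matrix metalloproteinases, rose in HC against NC, by 0.39 ± 0.149 and 0.60 ± 0.199 (SE) log2 units. Both fell in HK against HC, with log2 differences of -0.38 ± 0.137 and -0.78 ± 0.183. TIMP3 averaged 8.65 ± 0.16 (SD, n = 3) in NC, 8.76 ± 0.26 (SD, n = 4) in NK, 9.25 ± 0.25 (SD, n = 5) in HC and 8.47 ± 0.43 (SD, n = 4) in HK. Its lowest HC fetus, at 9.01, was above its highest NC fetus, at 8.77, an order that 2.08% of all probes shared. The TIMP1 call in HC minus NC did not pass without NC replicate 3, HC replicate 2 or HC replicate 5, and that in HK minus HC did not pass without HK replicate 4. A second TIMP1 probe was called in HK minus HC, at -0.34 ± 0.146. It was not called in HC minus NC, at 0.22 ± 0.159.

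SERPINF1, pigment epithelium-derived factor and a serpin that does not inhibit proteases, was the 1 listed gene called in HK against NK. It averaged 8.31 ± 0.19 (SD, n = 3) in NC, 8.57 ± 0.16 (SD, n = 4) in NK, 8.36 ± 0.17 (SD, n = 5) in HC and 8.07 ± 0.32 (SD, n = 4) in HK. It fell in HK against NK, with no overlap between these groups, as for 1.75% of all probes. The log2 difference was -0.50 ± 0.145 (SE), where 3.75% of all probes were called lower and 3.1% higher. With the normexp signal at the 75th percentile that difference was -0.21 and was not called. It also fell against HC, at -0.30 ± 0.137, a call lost without any 1 of 10 arrays, namely NC replicates 1 and 2, NK replicates 1, 2 and 3, HC replicates 3, 4 and 5 and HK replicates 1 and 4. SLPI, PI3 (elafin), TIMP2, TPSB2 and SERPINC1 were called in none of the 4 comparisons by that probe, while a second SLPI probe, well above background on 3 of 16 arrays, was called lower in HC minus NC at -0.38 ± 0.157. SLPI and PI3 inhibit elastase, as SERPINA1 does. PI3 averaged 8.52 in NC, 8.85 in NK, 8.74 in HC and 8.73 in HK, and SLPI was well above background on 2 of 16 arrays.

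The acute phase list had 8 measured genes besides C3 and SERPINA1, out of 26. CD14, a co-receptor for bacterial lipopolysaccharide, rose in HC by 0.95 ± 0.249 (SE) log2 units and fell in HK against HC, at -0.60 ± 0.228, the latter a call lost without HC replicate 2 or HK replicate 4. IL1RN, the interleukin-1 receptor antagonist, was called higher in HC. It was well above background on 2 of 5 HC arrays and on no NC array, and its HC mean was at least 1.12-fold higher than the NC bound, and the call was lost without NC replicate 1 or 3 or HC replicate 2 or 4. TTR, transthyretin, which choroid plexus makes in quantity, was called lower in HC, at -4.30 ± 1.64, with NC fetuses spread from 9.33 to 16.00. That call did not pass without NC replicate 1 or 2. CP (ceruloplasmin), ALB, TF, AHSG and APOA1 were not called in any comparison. The list as a whole had 3 of 8 estimates above 0 in HC minus NC.

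Genes of the signalling routes known to induce C3, a list that includes the inhibitor NFKBIA, changed most often after hypoxia alone. Of 14 measured, 6 rose in HC against NC, beside 3.3% of all probes, and the list's median was 0.28, against -0.02 over all probes. They were TNF, the receptors TLR2 and TLR4, the NF-kappaB inhibitor NFKBIA, and the transcription factors CEBPB and IRF1. IRF1 rose by 1.81 ± 0.504 (SE) log2 units, NFKBIA by 1.33 ± 0.353 and TLR2 by 0.55 ± 0.148, each with no overlap between HC and NC. Over all probes, HC lay wholly above NC for 2.08%. TNF rose by 0.51 ± 0.195, a call lost without NC replicate 2, and TLR4 by 0.32 ± 0.109. The CEBPB call, at 0.54 ± 0.241, was lost without any 1 NC array, without HC replicate 1, 2 or 4, or with HC replicate 1 placed in NK. With the normexp signal at the 75th percentile the TNF, TLR2, TLR4 and CEBPB calls were lost, at 0.22, 0.39, 0.065 and 0.40.

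In HK against HC, 4 of the 14 fell, beside 3.56% of all probes, with log2 differences of -0.44 ± 0.136 (SE) for TLR2, -0.27 ± 0.10 for TLR4, -0.81 ± 0.325 for NFKBIA and -0.14 ± 0.0587 for the TNF receptor TNFRSF1A. These calls did not pass without HK replicate 4 for TLR4, without HC replicate 1 or 4 or HK replicate 3 for NFKBIA, and without HC replicate 2 or 4 or HK replicate 2 or 4 for TNFRSF1A. The NFKBIA call was lost with HC replicate 1 placed in NK, and with the normexp signal at the 75th percentile TLR2 and TLR4 were not called, at -0.19 and -0.026, and TNFRSF1A turned to 0.16. In NK against NC, C3 was higher by 0.46 and 2.3% of all probes were called. None of the 14 was called there, and their median was 0.045. In HK against NK, the C3 difference was -0.77 and 6.85% of all probes were called. None of the 14 was called there either, and 8 of 14 estimates were above 0. IL1A, IL1B, IL6, IFNG, JUN, FOS and MYD88 were not called in any of the 4 comparisons by their probes with the highest mean. Other probes of these genes were called for IL1A in HC minus NC, at 0.19 ± 0.0833 and well above background on 3 of 16 arrays, for JUN in HK minus HC, at -0.72 ± 0.246, and for FOS in NK minus NC, at -0.37 ± 0.166.

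**Figure D4:**
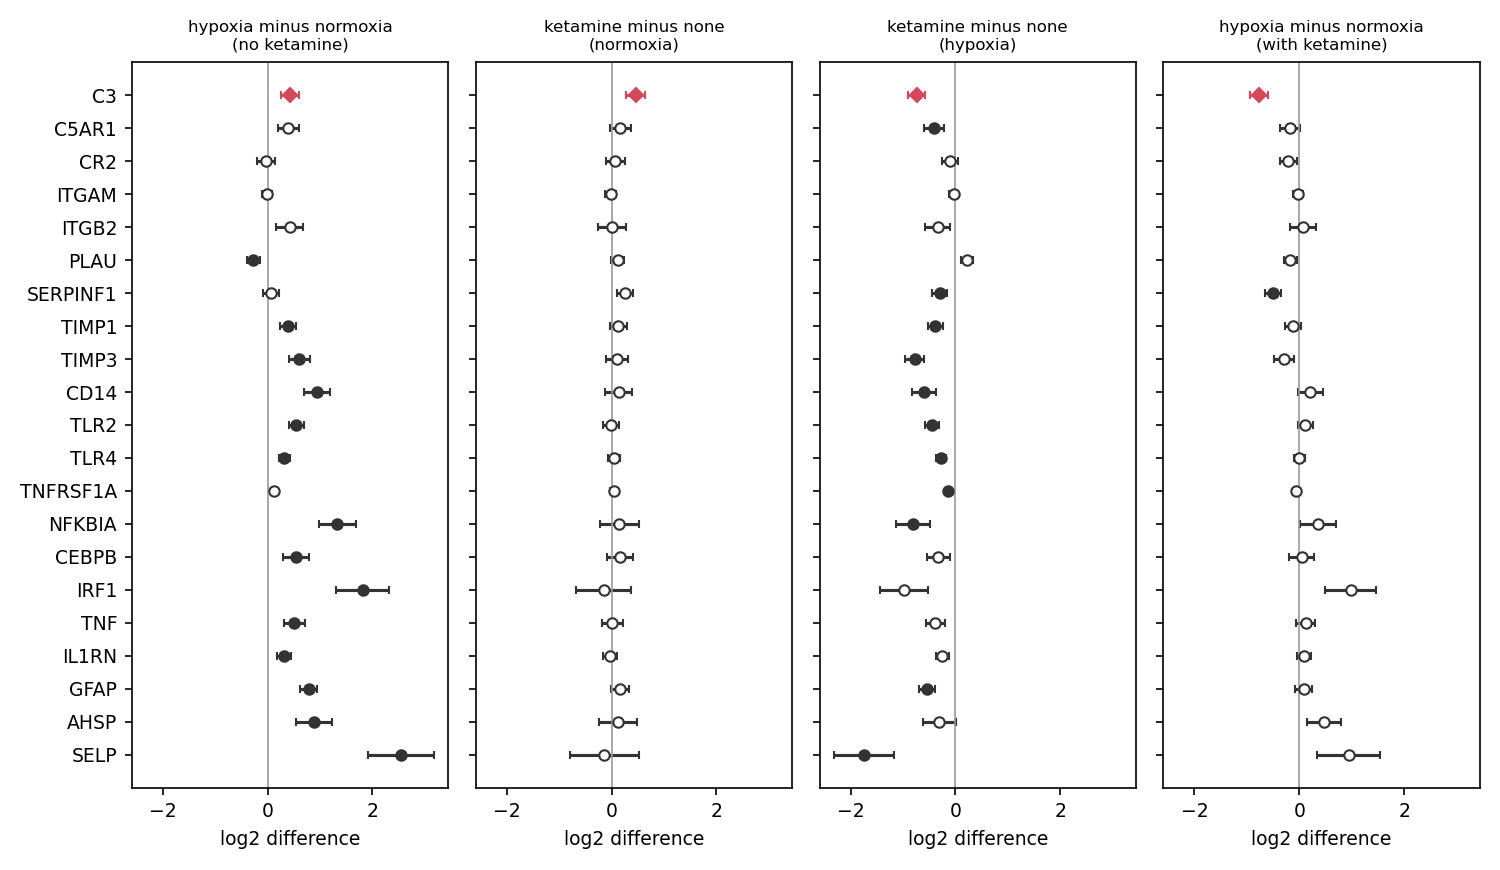
Log2 difference with its SE for C3 probe 1 (red diamond, not tested), the other complement genes and the genes called in any of the 4 comparisons except TTR (circles, filled where limma's unadjusted P was below 0.05), each by its probe with the highest mean, with panels from left to right for HC minus NC, NK minus NC, HK minus HC and HK minus NK. Filled circles are frequent for HC minus NC and HK minus HC, absent for NK minus NC, and SERPINF1 alone is filled for HK minus NK. Of all probes, 8.0% were called in HC minus NC, 9.03% in HK minus HC, 2.3% in NK minus NC and 6.85% in HK minus NK.

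Across all lists, none of the genes tested was called in NK against NC by its probe with the highest mean. Over all probes 2.3% were called there, and no call in lists of this size is close to that share. Other probes alone called 4 listed genes in HC minus NC, 2 in HK minus HC, 1 in NK minus NC and 3 in HK minus NK. The genes called both higher in HC against NC and lower in HK against HC numbered 8, beside 1.51% of all probes, namely TIMP1, TIMP3, CD14, TLR2, TLR4, NFKBIA, GFAP and SELP. The HK minus HC calls of NFKBIA and SELP were lost with HC replicate 1 placed in NK. The second TIMP1 probe was not called in HC minus NC. C3 shared the direction of these genes in both comparisons. In HK against NK the C3 difference was -0.77 ± 0.167 (SE), and those of these 8 genes lay between -0.29 ± 0.193 for TIMP3 and 0.94 ± 0.609 for SELP, none of them called. The interaction was called lower for SERPINF1, TIMP1 and TIMP3, of 8 genes on the antiprotease list, and for CD14 and GFAP. Over all probes 2.43% were called lower in the interaction. It was called for none of the 4 complement or 14 inducer genes by the probe with the highest mean. Second probes of C5AR1, TLR2 and JUN were called in it, at -0.62 ± 0.241, -0.55 ± 0.202 and -1.01 ± 0.373. That of TIMP1 was not, at -0.37 ± 0.221. All comparisons with HC share the HC fetuses, so a gene high by chance in HC moves in both.

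The cells behind C3 cannot be read directly from whole cortex, where fewer cells of a type and less RNA per cell cannot be told apart. No neuron and no oligodendrocyte marker of the lists had a named probe, so these could not be used to check the cortical label. Astrocyte genes are not particular to cortex. Of them, 6 of 8 had a named probe and 5 were well above background on all arrays. GFAP, the intermediate filament of astrocytes, rose in HC by 0.78 ± 0.164 (SE) log2 units and fell in HK against HC, at -0.54 ± 0.151, with HC fetuses at 10.48 to 10.95 and NC fetuses at 9.78 to 10.02. HC lay wholly above NC for 2.08% of all probes. AQP4, GJA1, SLC1A2, SLC1A3 and FGFR3 were not called, while a second SLC1A3 probe was, at -0.44 ± 0.189 in HK minus NK. The summed normalized intensity of the astrocyte markers was 47900 to 58400 in NC, 46700 to 57500 in NK, 45400 to 71100 in HC and 40400 to 58400 in HK, and its log2 correlated with C3 at r = 0.51 over 16 arrays. AQP4 made up 85.7% of that sum, with r = 0.48 alone, and the sum of the other 5 genes had r = 0.50.

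Of 16 microglia and macrophage markers, ITGAM, CD14 and LYZ were measured. Their summed intensity was 454 to 523 in NC, 514 to 589 in NK, 629 to 1300 in HC and 559 to 1030 in HK. The r with C3 was 0.019. CD14 made up 53.8% of that sum and was the only 1 of the 3 well above background on all arrays. ITGAM and LYZ were dim, LYZ being well above background on no NC array, so part of the sum is background. The sum without CD14 had r = -0.1. Of 9 red cell markers HBB and AHSP were measured, and AHSP was called higher in HC by 0.89 ± 0.341 (SE). That call was lost without NC replicate 2 or 3 and with replicate number as a block in the fit. It was also lost with the processed signal and quantile normalization, and with the normexp signal at the 75th percentile. HBB made up 98.9% of the red cell sum. The red cell sum ran from 10400 to 28200 in NC, 13100 to 30300 in NK, 9560 to 63100 in HC and 6680 to 26000 in HK. Of 9 endothelial markers 6 were measured, and SELP, the adhesion molecule P-selectin, rose in HC by 2.54 ± 0.629 and fell in HK against HC, at -1.74 ± 0.578, the latter a call lost with HC replicate 1 placed in NK. The endothelial sum was 1860 to 2070 in NC, 1610 to 1900 in NK, 2140 to 4560 in HC and 1700 to 2560 in HK. PECAM1 made up 53.2% of its mean, and SELP ran from 7.43 to 11.59 log2 units in HC. PECAM1, KDR, TEK, FLT1 and SELE were not called, at -0.12, -0.085, 0.0074, 0.20 and -0.071 for HC minus NC. TEK and SELE were well above background on no array by that probe. Another KDR probe was called in HC minus NC, at -0.18 ± 0.0759, and another FLT1 probe in HK minus HC, at -0.18 ± 0.0816.

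The choroid plexus markers varied widely as a sum, with TTR alone running from 6.78 to 16.00 log2 units. AQP1 was dim, well above background on 1 HC array and no other. The sum of TTR, AQP1, IGF2 and IGFBP2, 4 of 7 listed, ran from 10900 to 82600 in NC, 9030 to 26100 in NK, 9500 to 34800 in HC and 6430 to 17100 in HK, and its log2 had r = 0.21 with C3. TTR made up 38.6% of that sum, with r = -0.089 alone, and the sum without TTR had r = 0.52. The 6 of 12 hepatocyte markers with a named probe summed to 11200 to 81500 in NC, 13500 to 33600 in NK, 7710 to 24000 in HC and 8070 to 25600 in HK, with r = 0.049, and TTR belongs to both lists. Without TTR the hepatocyte sum had r = 0.24. LTF, the 1 measured neutrophil marker of 13, had a normalized intensity of 230 to 279 in NC, 166 to 206 in NK, 149 to 507 in HC and 171 to 625 in HK. The part of these cell types in the C3 levels was not tested.

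Among 641 other named genes well above background on all arrays, the 5 whose levels were most like C3 probe 1 over 16 arrays were NR1 (r = 0.67), CLC4 (0.65), EIF4GI (0.63), EIF3A (0.63) and ACSS2 (0.62), by the names of the array files or their current symbols. NR1 is an older name of the obligatory subunit of the NMDA receptor, the target of ketamine. Its HK minus NK difference was -0.53, its NK minus NC difference 0.21 and its HK minus HC difference -0.33 log2 units. In HC minus NC it differed by 0.0036, where C3 probe 1 differed by 0.43. EIF3A, a subunit of the translation initiation factor eIF3, differed by -0.59, 0.16, -0.52 and 0.091 in the same order. With each group's mean taken off, r was 0.47 for NR1, 0.69 for CLC4, 0.30 for EIF4GI, 0.28 for EIF3A and 0.20 for ACSS2. The genes least like C3 were INHA (r = -0.72), KIAA2013 (r = -0.71) and RABGGTB (r = -0.69). None of the listed complement or acute phase genes was among either set.

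For SERPINA1 probe 1 the same ranking over 642 genes gave GFAP (r = 0.70), TLR3 (0.68), GJA1 (0.65), CD86 (0.65) and FCER1G (0.65) as most alike, and RILPL2 (r = -0.70), ASIP (r = -0.68) and CRYAB (r = -0.64) as least alike. Because the SERPINA1 spot was well above background on 1 array, these values rest on few readings. Without the 2 arrays farthest from the median SERPINA1 level, r was 0.47 for GFAP, 0.16 for GJA1 and -0.049 for ASIP. For C3 the same step left r at 0.67 for NR1 and -0.75 for INHA.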

How the data were processed

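RNA of 16 frontal cortices was labelled with cyanine 3 and hybridized by the authors to 1-colour Agilent sheep arrays. Per the file headers, the deposited intensity of each spot comes from Feature Extraction 10.1.1.1, before normalization between arrays. The authors' deposited processed values are on the log2 scale after quantile normalization and served only as an alternative. The submitters' processing notes name limma and R 2.15.1.

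Mean signals were corrected with normexp (offset 50) on the local background in limma 3.58.1 (R 4.3.3), quantile normalized, freed of 536 control spots and 222 outlier spots and averaged per probe, which gave 15008 probes. On each array 69.2 to 76.9% of spots were well above background, and pairs of arrays correlated at 0.984 to 0.996. The number of arrays limits the precision. Through the sheep reference table and the files' own names, 1656 probes (1021 genes) were named. The other 13352 probes had no gene name, so a listed gene without a named probe may still be on the array. Listed genes called measured are those with a named probe.

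Groups follow the sample titles. One linear model with 4 group means was fitted over all probes, a probe being called below an unadjusted P of 0.05, the threshold of the study's methods, and the probe with the highest mean stood for a gene. The fit was tested on simulated data. Named are C3 and SERPINA1, the measured complement genes, the listed genes that were called, and the 5 genes most and 3 least like each member. Genes listed as not called, marker genes behind a sum, and second probes of listed genes were named after their values were seen. A few listed genes are left unreported here. The members and lists were chosen with earlier results of these data known. Most fetuses were twins, and which shared a ewe is not given in the sources used here, so P-values measure only the spread between these fetuses.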

Additional observations from a re-analysis of the deposited data

Results flagged for a closer look

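C3 had hypoxia differences of opposite sign without and with ketamine. With probe 2 every HC fetus was above the NC mean and every HK fetus below the NK mean, and the difference of differences was -1.16 log2 units. That difference was not tested.

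Among the other listed genes, the hypoxia difference was smaller or more negative with ketamine than without by an interaction term in limma for SERPINF1 (-0.56 log2 units), TIMP1 (-0.51), TIMP3 (-0.89), CD14 (-0.74) and GFAP (-0.70), each below the unadjusted threshold. Second probes of C5AR1 (-0.62), TLR2 (-0.55) and JUN (-1.01) passed it as well, where the probes with the highest mean did not. The second TIMP1 probe, at -0.37, did not pass it. No interaction passed adjustment, the lowest limma adjusted P over all probes being 0.734.

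Of 75 groups of samples looked at, 3 held a sample far from the others, and chance gives about 1 in 20. They were HK replicate 3 for SERPINA1 probe 2, at 7.14, HK replicate 2 for TNF, at 7.78, and NK replicate 2 for AHSP, at 6.99 on the log2 scale.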

How the results depend on the processing

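C3 kept its direction in all 4 comparisons with both probes under every alternative and with each array left out, HC minus NC staying between 0.34 and 0.56, NK minus NC between 0.30 and 0.59, HK minus HC between -0.86 and -0.64 and HK minus NK between -0.89 and -0.52. Replicate numbers coincide with slides, and whether same-numbered fetuses shared a ewe is not given. Correlations of same-numbered deviations ran from -0.11 to 0.37, which cannot tell whether some of these fetuses were twins. The replicate block called 1484 probes in HC minus NC and 1597 in HK minus HC, against 1201 and 1355 without it. With it the C3 probe 1 differences were 0.46 for HC minus NC, 0.51 for NK minus NC, -0.72 for HK minus HC and -0.77 for HK minus NK.

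SERPINA1 had no stable difference, and the filter on dim probes removed it. With the processed signal and quantile normalization, probe 1 gave 0.87 for HC minus NC, -0.49 for HK minus HC, -0.14 for NK minus NC, 0.52 for HK minus NK and -0.36 for the interaction, and probe 2 gave 0.90 for HC minus NC and 0.79 for HK minus NK. With the processed signal at the 75th percentile probe 1 gave 0.79, -0.38, -0.17 and 0.58 in the 4 comparisons, and probe 2 gave 0.87 and 0.83. With normexp at the 75th percentile probe 1 gave -0.13, 0.22, -0.83, 0.93 and 1.05, and probe 2 gave -0.15, 0.27, -0.82, 0.94 and 1.09. In that last scaling the median of all probes was -0.16, 0.21, -0.30 and 0.38 in the 4 comparisons, against -0.02, 0.017, 0.00056 and 0.00065, and it turned TNFRSF1A in HK minus HC to 0.16. The cause was not tested.

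The reported settings called 1 of the 9 other complement and coagulation genes in HC minus NC and 1 in HK minus HC. HC minus NC gave 0 with normexp at the 75th percentile, the authors' values, HC replicate 1 in NK or Benjamini-Hochberg adjustment, 2 with the processed signal at the 75th percentile or any probe of a gene, 3 with slide as a block, and 4 with the replicate block or array weights. HK minus HC gave 0 with normexp at the 75th percentile, with the compared groups alone, with HC replicate 1 in NK or with adjustment, 2 with slide as a block or array weights and 3 with the replicate block. HK minus NK gave 1 with any probe of a gene, against 0. Leaving out 1 array gave 0 to 2 in HC minus NC and in HK minus HC.

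Of the 51 genes of the other lists, 14, 10, 0 and 1 were called in HC minus NC, HK minus HC, NK minus NC and HK minus NK. Of all probes, 8.0%, 9.03%, 2.3% and 6.85% were called in the same order. Normexp at the 75th percentile gave 7 and 4 in the first pair and 5 in HK minus NK. The compared groups alone gave 6 in HK minus HC, 3 in NK minus NC and 4 in HK minus NK, the replicate block 2 and 4 in the last pair, and HC replicate 1 in NK 1 and 3. Array weights gave 1 in NK minus NC, and HK minus NK gave 4 and 3 with the processed signal by quantile and 75th percentile. Leaving out 1 array gave 10 to 16 in HC minus NC, 6 (without HK replicate 4) to 14 in HK minus HC, 0 to 3 (without NK replicate 2) in NK minus NC and 1 to 7 in HK minus NK, where HK replicates 1 and 3 gave 5 and 7. Over all probes, HC minus NC split 496 higher to 705 lower, 560 to 438 with the processed signal at the 75th percentile and 137 to 57 with normexp at the 75th percentile. The last scaling called 194, 206, 41 and 324 probes in the 4 comparisons, against 1201, 1355, 345 and 1028, and array weights called 568 in NK minus NC. Of the 27 calls of listed genes, 3 were lost with the replicate block, namely SERPINF1 and TNFRSF1A in HK minus HC and AHSP in HC minus NC, 5 with HC replicate 1 in NK and 8 with the compared groups alone. The processed signal by quantile lost 3 and gave 15 a size over 1.5 times the reported one.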
